A study of Rattus norvegicus with 23 samples.

Results

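The proteasome genes described here are the 46 genes whose single symbol on the array begins with Psma, Psmb, Psmc, Psmd, Psme, Psmf or Psmg and a number, of 14217 genes represented in all. Where several probe sets read a gene, the brightest on average was taken. Of the 46, 5 encode the immunoproteasome (Psmb8, Psmb9, Psmb10, Psme1 and Psme2), 39 encode other subunits, activators, inhibitors or assembly factors, and 2 only share the letters of the name (Psmc3ip, a recombination factor, and Psme3ip1, an interactor of Psme3). The rule reads only the symbol, but the family was picked with earlier results of these data known.

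RNA came from 23 samples of male rat kidney of the strains SBH/y and SBN/y, on 1 Affymetrix array each, and the labels do not state whether every sample is a separate animal. The strains are known as the hypertension-prone and hypertension-resistant lines of the Sabra rat. The groups were SBH/y rats after right uninephrectomy (6 arrays), SBH/y rats with 2 kidneys after a sham operation (6), SBN/y rats after right uninephrectomy (6) and SBN/y rats with 2 kidneys after a sham operation (5), all fed standard chow and killed at 4 months of age, 3 months after surgery. Whole kidneys hold many cell types. A higher or lower signal in such bulk RNA cannot tell a changed number of cells of a type from changed RNA per cell.

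The proteasome degrades proteins that were tagged with ubiquitin. Its 20S core is a barrel of alpha rings outside and beta rings inside, and 3 kinds of beta subunit carry the proteolytic sites. The 19S cap recognises, unfolds and feeds in the substrate. Under interferon, and constantly in many immune cells, newly made barrels take up Psmb8, Psmb9 and Psmb10 in place of Psmb5, Psmb6 and Psmb7, and Psme1 with Psme2 forms the PA28 cap. Such barrels cut peptides that suit MHC class I presentation. Most kidney tubule cells are known mainly for the constitutive form.

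The promoters of the 5 immunoproteasome genes are shown because 4 of these genes changed together and all are known interferon targets. Each line gives 300 bases of the GRCr8 reference from RefSeq, 250 before and 50 after the gene's start, 5′ to 3′ on the gene's strand, with matches to the core of an interferon-stimulated response element (GAAA, any 2 bases, GAAA, or the reverse complement) in capitals. The reference is not the sequence of either strain. The windows lie at chr20:4656982-4657281 (minus strand), chr20:4668750-4669049 (plus), chr19:50743243-50743542 (minus), chr15:33038721-33039020 (plus) and chr15:33052702-33053001 (minus).
Psmb8: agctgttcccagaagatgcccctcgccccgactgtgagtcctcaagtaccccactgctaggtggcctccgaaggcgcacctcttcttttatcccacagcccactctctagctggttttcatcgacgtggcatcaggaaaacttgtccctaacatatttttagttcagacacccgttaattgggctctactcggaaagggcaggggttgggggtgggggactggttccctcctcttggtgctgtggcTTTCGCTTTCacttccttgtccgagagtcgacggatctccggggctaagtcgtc
Psmb9: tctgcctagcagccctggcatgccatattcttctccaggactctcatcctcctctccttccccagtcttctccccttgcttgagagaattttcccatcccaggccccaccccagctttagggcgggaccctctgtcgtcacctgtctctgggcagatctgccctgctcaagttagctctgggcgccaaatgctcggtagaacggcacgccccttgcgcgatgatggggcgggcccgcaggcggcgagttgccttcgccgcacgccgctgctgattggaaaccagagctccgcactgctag
Psmb10: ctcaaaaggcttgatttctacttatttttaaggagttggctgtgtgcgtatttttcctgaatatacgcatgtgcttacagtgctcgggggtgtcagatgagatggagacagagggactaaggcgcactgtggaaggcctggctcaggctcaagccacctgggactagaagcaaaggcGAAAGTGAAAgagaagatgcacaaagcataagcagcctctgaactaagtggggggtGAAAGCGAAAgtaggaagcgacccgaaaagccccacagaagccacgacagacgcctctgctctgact
Psme1: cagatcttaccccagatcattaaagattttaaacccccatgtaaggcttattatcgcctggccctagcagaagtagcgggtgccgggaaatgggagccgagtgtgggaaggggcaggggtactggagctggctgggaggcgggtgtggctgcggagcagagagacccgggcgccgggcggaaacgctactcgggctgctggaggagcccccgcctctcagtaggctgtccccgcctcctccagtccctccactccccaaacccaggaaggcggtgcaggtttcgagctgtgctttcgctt
Psme2: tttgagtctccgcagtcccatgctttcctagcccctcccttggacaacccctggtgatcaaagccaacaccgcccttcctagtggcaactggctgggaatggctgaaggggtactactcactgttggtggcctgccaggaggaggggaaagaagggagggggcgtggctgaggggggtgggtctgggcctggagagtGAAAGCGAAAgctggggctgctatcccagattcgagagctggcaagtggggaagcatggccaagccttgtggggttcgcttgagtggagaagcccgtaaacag
The element core was found in 3 of 5 immunoproteasome windows (Psmb8, Psmb10 with 2 matches, and Psme2), in 4 of the 35 windows of other proteasome genes (Psma4, Psmb3, Psmd7 and Psmg4), and in 3.92% of all 33469 windows of this length. Counting the start as 0, the matches begin at base -4 in Psmb8, on the opposite strand, at -73 and -17 in Psmb10 and at -53 in Psme2. The Psmb9 window holds none, and it overlaps that of Tap1, the peptide transporter gene on the opposite strand, by 44 bases. The Tap1 window has a match at -121. The Psme1 window holds no whole match, but it ends in tttcgctt, the beginning of the reverse complement. Its edge may therefore cut a match off. Of the 44 proteasome genes, 40 had a window in the table.

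**Figure D1:**
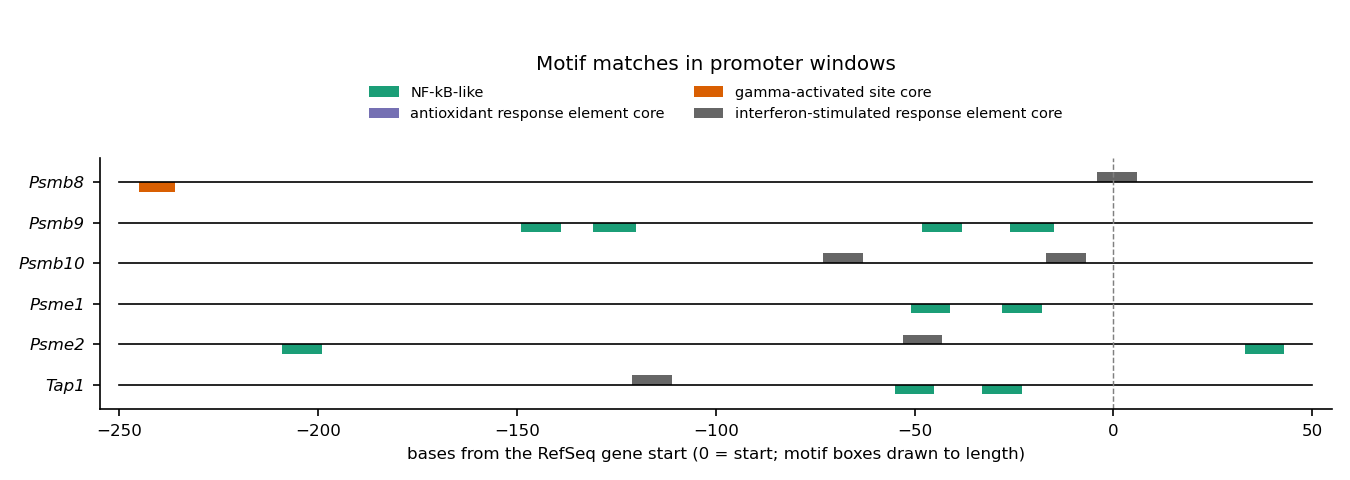
Matches to 4 short motifs in the windows of the 5 immunoproteasome genes and Tap1, by distance in bases from the gene's start (horizontal axis, start at 0). Boxes are drawn to the motif's length, and their place above or below a line only keeps motifs apart. Interferon-stimulated response element cores appear in Psmb8, Psmb10, Psme2 and Tap1, a gamma-activated site core in Psmb8 alone among these 6, and the antioxidant response element core in none of them.

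Of the other motifs, searched on both strands, the gamma-activated site core (TTCNNNGAA) was in 1 of 5, 3 of 35 others and 8.87% of all windows. The NF-kB-like motif (GGG, any 5 bases, CC) was in 3 of 5, 22 of 35 and 47.3%. The antioxidant response element core (TGACNNNGC), bound by Nrf factors, was in 0 of 5, 7 of 35 and 12.1%. No binding was measured, and these matches are a description of letters only.

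All 46 genes had means above that of the median probe set (4.66 on the deposited log2 scale), between 5.63 for Psmc3ip and 10.31 for Psma6, an alpha subunit. Arrays of the same group correlated at 0.990 to 0.997 over all probe sets. The 3 liver markers Alb, Apoa1 and Cps1 stayed low, between 3.00 and 3.36 on average per array, and the kidney epithelium markers measured (10 of 11) averaged between 9.76 and 9.99 per array. Of these 10, the podocyte gene Nphs1 fell in SBH/y with 1 minus 2 kidneys (-0.42), and between strains Aqp2 was higher in SBH/y with 1 kidney (0.61) and with 2 (0.40), and Cubn with 2 (0.27). All tests below are limma contrasts over 31042 probe sets, with p-values adjusted by the Benjamini-Hochberg method and a threshold of 0.05. Differences are in log2 units with the standard error (SE) of the fit.

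SBH/y rats that had lost a kidney differed from sham-operated SBH/y rats in the immunoproteasome. SBH/y rats with 1 kidney had higher signals of these genes than SBH/y rats with 2, and of the 5 genes 4 rose (Psmb8, Psmb10, Psmb9 and Psme2), by 1.19-fold to 1.51-fold, whereas 0 of the 39 other proteasome genes passed the threshold in either direction. The percentage of all probe sets called in this comparison was 5.04, with 3.06 higher, and 7.16 of the brightest probe sets of all genes. The 4 calls are 8.7% of the 46 members, close to that background, and they fell on the immunoproteasome genes alone. The median difference was 0.40 log2 over the immunoproteasome genes and 0.07 over the 39 others, against 0.0036 over all genes. That no other gene was called depends on the processing: with p-values adjusted over 1 probe set per gene, 4 others rose too (Psma4, Psma7, Psmc3 and Psmc5).

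Psmb8, the inducible chymotrypsin-like subunit, ranged from 6.85 to 7.40 (median 7.22) in the 6 SBH/y arrays with 1 kidney and from 6.41 to 6.79 (median 6.56) in the 6 with 2. The groups did not overlap. The difference was 0.60 ± 0.08, or 1.51-fold (adjusted p = 5.05e-05). Psmb10, the inducible trypsin-like subunit, ranged from 6.26 to 6.73 (median 6.58) with 1 kidney and from 5.83 to 6.24 (median 6.11) with 2. It was 1.37-fold higher with 1 kidney, and again every array with 1 kidney was above every array with 2 (0.46 ± 0.08, adjusted p = 0.00046). Psmb9, which replaces the caspase-like subunit, ranged from 7.12 to 7.57 (median 7.24) with 1 kidney and from 6.63 to 7.003 (median 6.98) with 2. It was 1.32-fold higher without overlap (0.40 ± 0.10, adjusted p = 0.0144), and without replicate 1 of SBH/y with 1 kidney the difference was 0.35 with adjusted p = 0.0546.

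Of the PA28 genes, Psme2, which encodes the beta chain, ranged from 8.65 to 8.88 (median 8.69) in SBH/y with 1 kidney and from 8.34 to 8.57 (median 8.48) with 2. The arrays did not overlap, and the difference was 0.25 ± 0.06 (1.19-fold, adjusted p = 0.0068). Psme1, which encodes the alpha chain, ranged from 9.73 to 9.94 (median 9.87) with 1 kidney and from 9.65 to 9.79 (median 9.71) with 2. These arrays overlapped, and Psme1 missed the threshold (0.14 ± 0.05, adjusted p = 0.127). Its other, dim probe set gave -0.07 (adjusted p = 0.813).

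**Figure D2:**
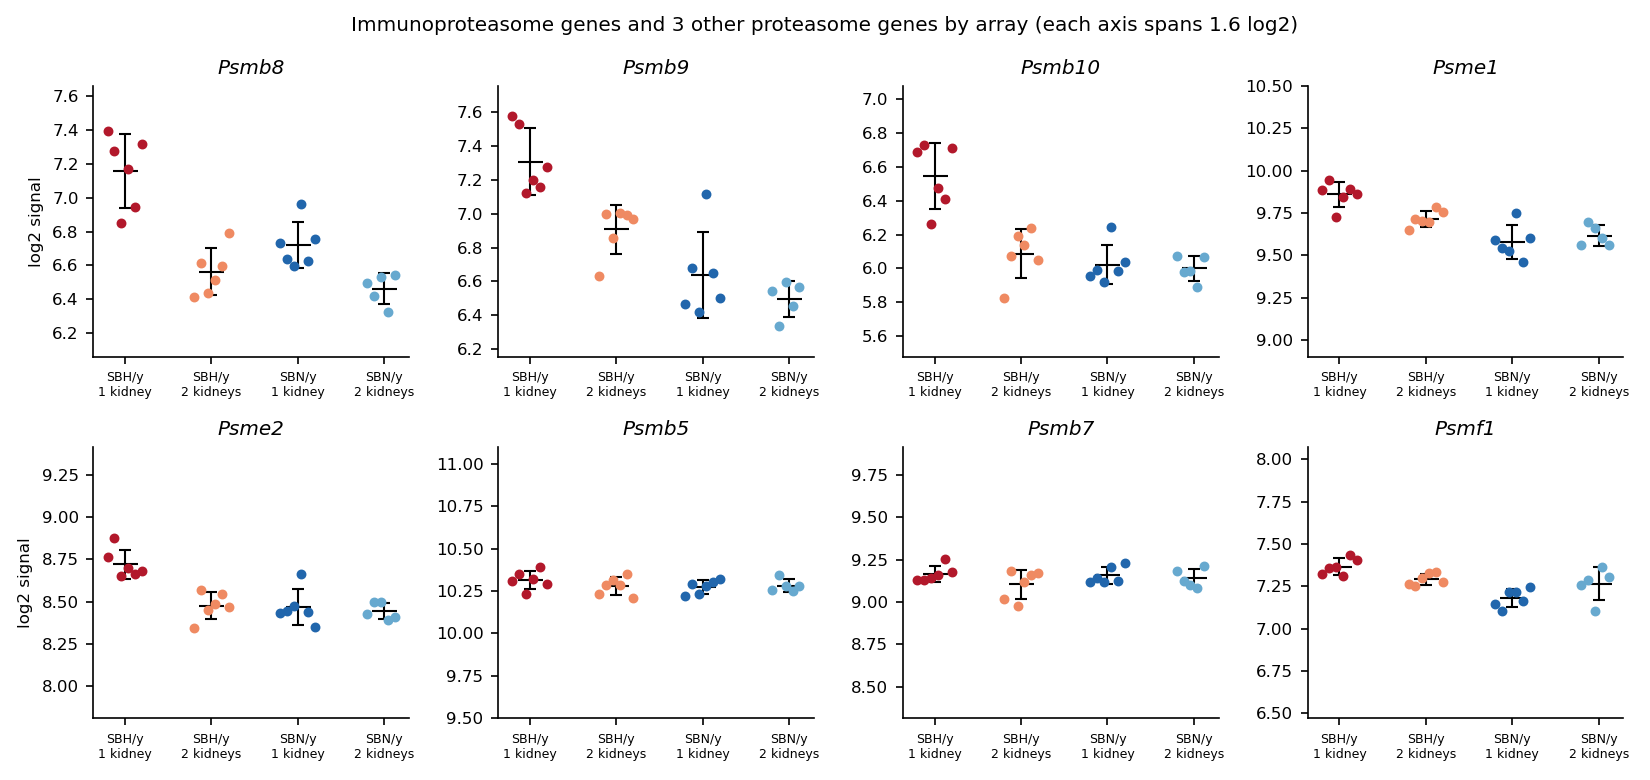
Deposited log2 signal (vertical axes, each spanning the same range of log2 units) of the 5 immunoproteasome genes and of Psmb5, Psmb7 and Psmf1 in every array. Points are arrays, the horizontal bar is the group mean and the whiskers are the SD, with n = 6 for all groups except SBN/y with 2 kidneys (n = 5). The SBH/y arrays with 1 kidney have the highest mean for Psmb8, 7.16, while Psmb5 stays between 10.21 and 10.39 in all arrays.

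The constitutive catalytic subunits that these replace did not pass the threshold. Psmb5, the partner of Psmb8, ranged from 10.23 to 10.39 (median 10.32) with 1 kidney and from 10.21 to 10.35 (median 10.28) with 2, a difference of 0.04 ± 0.04 (adjusted p = 0.786). Psmb7, the partner of Psmb10, ranged from 9.13 to 9.25 (median 9.15) with 1 kidney and from 8.97 to 9.18 (median 9.14) with 2, a difference of 0.06 ± 0.05 (adjusted p = 0.626). Psmb6, the partner of Psmb9, and Psme3, the gamma chain of that family of caps, were read by probe sets that carry several symbols and were not analysed here. The tissue-restricted Psma8 and Psmb11 were not analysed here either. Within each array, Psmb8 minus Psmb5 was 0.56 ± 0.11 higher with 1 kidney than with 2 in SBH/y (SE of the group means), and Psmb10 minus Psmb7 was 0.40 ± 0.11 higher. Both ratios overlapped between these groups. In SBN/y, Psmb8 minus Psmb5 was also higher with 1 kidney than with 2 (0.26 ± 0.07), there without overlap. Psmb10 minus Psmb7 differed by 0.008 ± 0.04 in SBN/y, with overlap.

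The other 39 genes leaned upward in SBH/y with 1 minus 2 kidneys without passing the threshold. The difference was positive in 34 and negative in 5, from -0.13 ± 0.06 for Psma3 to 0.23 ± 0.07 for Psma4, both alpha subunits. The share of all genes with a positive difference was not counted. The median of the 39, 0.07, lay between the quartiles over all genes, -0.06 and 0.08. Averaged over the 39, SBH/y with 2 kidneys was lowest (8.39), beside 8.46 in SBH/y with 1 and 8.43 in both SBN/y groups. By role, 6 of 6 ATPases of the 19S cap were positive (median 0.08), 11 of 11 of its non-ATPase subunits (median 0.08), 5 of 6 constitutive beta subunits (median 0.08), 5 of 7 alpha subunits (median 0.02) and 5 of 7 assembly factors (median 0.01). The lowest adjusted p were 0.0661 for Psma4, 0.0743 for the ATPase Psmc5, 0.0915 for the ATPase Psmc3 and 0.0993 for the alpha subunit Psma7. Psmc5 and Psma7 did not overlap between the groups, so 6 of the 46 did not overlap, all higher, where the percentage over all probe sets was 2.84 (1.81 higher). Psmc3ip (-0.07 ± 0.06) and Psme3ip1 (0.09 ± 0.05) missed the threshold as well.

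**Figure D3:**
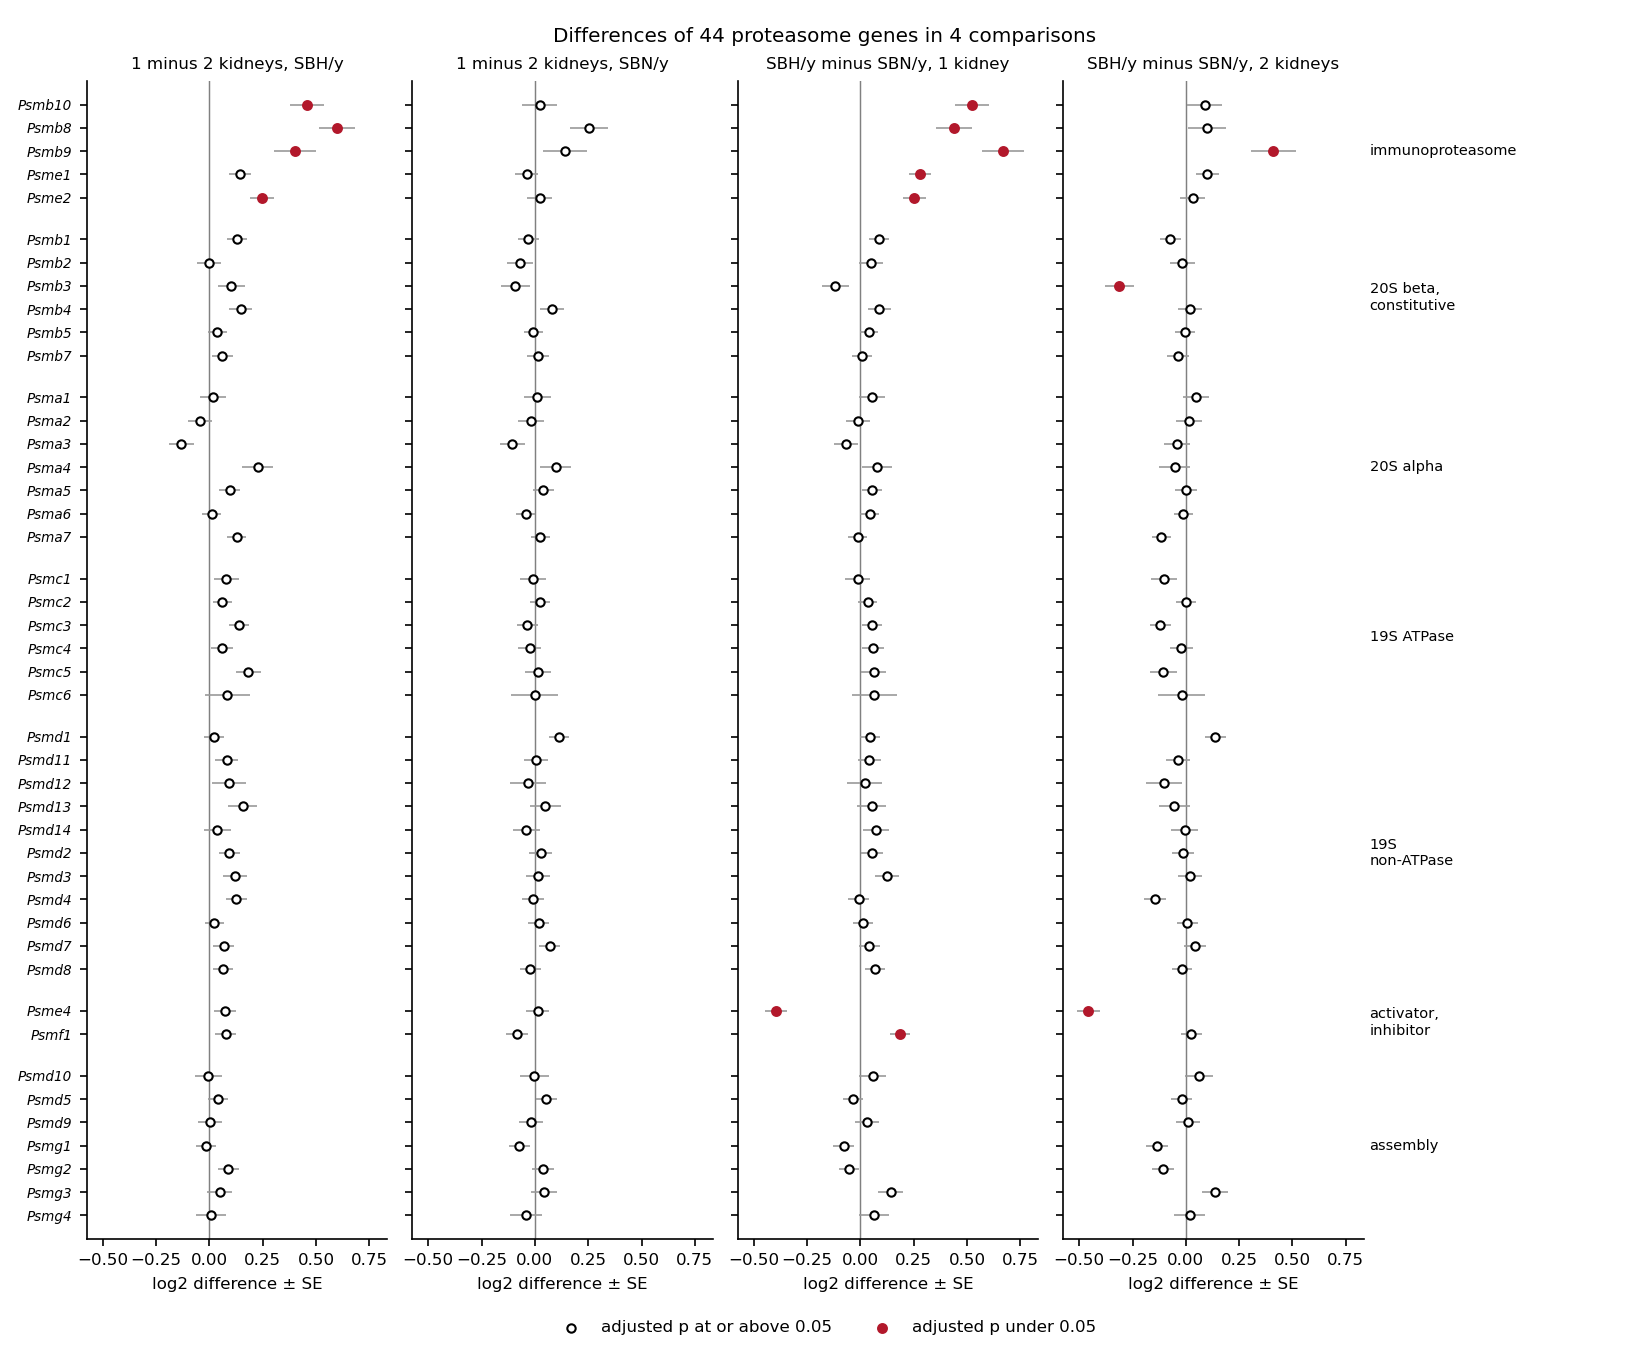
Differences (log2, horizontal axes, points, with SE as lines) of the 44 proteasome genes in 4 comparisons, grouped by role from top to bottom. Filled points passed the threshold. In SBH/y with 1 minus 2 kidneys the filled points are 4 immunoproteasome genes, up to 0.60 for Psmb8, and with 1 kidney all 5 are filled in SBH/y minus SBN/y, up to 0.67 for Psmb9.

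The same operation in SBN/y rats gave no call. Of the 46 genes, 0 passed the threshold (limma), where the percentage of all probe sets called was 0.168. An unadjusted p under 0.05 was found for 2 (Psmb8 and Psmd1), and the share of all probe sets at that cut was not counted. Psmb8 ranged from 6.60 to 6.96 (median 6.68) in the 6 SBN/y arrays with 1 kidney, against 6.49, 6.42, 6.53, 6.32 and 6.55 in the 5 with 2. Every array with 1 kidney was above every array with 2, and this was the only member without overlap, where the percentage over all probe sets was 1.26. Its difference of 0.26 ± 0.09 did not pass (unadjusted p = 0.00803, adjusted p = 0.391).

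The other immunoproteasome genes overlapped between SBN/y rats with 1 and with 2 kidneys. Psmb9 ranged from 6.42 to 7.11 (median 6.58) with 1 kidney and had 6.54, 6.33, 6.60, 6.45 and 6.56 with 2 (difference 0.14 ± 0.10, adjusted p = 0.860). Psmb10 ranged from 5.92 to 6.24 (median 5.99) with 1 kidney and had 6.07, 5.98, 5.99, 5.89 and 6.07 with 2 (0.02 ± 0.08, adjusted p = 0.989). Replicate 4 of SBN/y with 1 kidney was the highest of its group for all 5 immunoproteasome genes. Psme1 ranged from 9.46 to 9.75 (median 9.57) with 1 kidney and had 9.56, 9.70, 9.66, 9.60 and 9.56 with 2 (-0.04 ± 0.05, adjusted p = 0.953). Psme2 ranged from 8.35 to 8.66 (median 8.44) with 1 kidney and had 8.43, 8.50, 8.50, 8.39 and 8.41 with 2 (0.02 ± 0.06, adjusted p = 0.982). Medians of the difference were 0.02 over the 5 genes and -0.0009 over the 39 others, against 0.0046 over all genes, and both signs turned when single arrays were left out.

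Whether the response to uninephrectomy differed between the strains was tested directly, as the SBH/y response minus the SBN/y response. No proteasome gene passed (0 of 46, limma), against 0.254% of all probe sets at the same adjusted threshold. An unadjusted p under 0.05 was found for 8, 4 of the immunoproteasome genes and 4 of the 39 others. The share of all probe sets at that cut was not counted. All 5 immunoproteasome genes had a larger response in SBH/y: 0.44 ± 0.11 for Psmb10 (adjusted p = 0.124), 0.34 ± 0.12 for Psmb8 (0.372), 0.26 ± 0.14 for Psmb9 (0.693), 0.22 ± 0.08 for Psme2 (0.374) and 0.18 ± 0.07 for Psme1 (0.498). The calls in SBH/y beside none in SBN/y are therefore not shown to differ. A larger response in SBH/y was not particular to the 5 genes, as 33 of the 39 others were positive too. The median was 0.26 over the immunoproteasome genes and 0.07 over the 39 others, against 0.0047 over all genes. Without replicate 3 of SBH/y with 1 kidney, the lowest array of its group for all 5 genes, Psmb10 passed at 0.49 (adjusted p = 0.0315).

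With 1 kidney, SBH/y rats were higher than SBN/y rats in all 5 immunoproteasome genes. In all, 7 members differed, 6 of them higher and 1 lower, where the percentage of all probe sets called was 14, with 7.55 higher and 6.43 lower. The 7 calls are 15.2% of the members, close to the background (17.7% over the brightest probe sets of all genes). The remaining calls were Psmf1, higher, and Psme4, lower. The median difference was 0.44 over the immunoproteasome genes and 0.05 over the 39 others, against 0.0060 over all genes.

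Psmb9 showed the widest strain gap of the 46 with 1 kidney, 0.67 ± 0.10 or 1.59-fold (adjusted p = 1.32e-05), with 7.12 as the lowest SBH/y array and 7.11 as the highest SBN/y array. The share of all probe sets without overlap here was 7.62%. Psmb10 was 0.52 ± 0.08 or 1.44-fold higher (adjusted p = 1.7e-05), with 6.26 as the lowest SBH/y array and 6.24 as the highest SBN/y array. Both gaps were thus narrow, and the highest SBN/y array was replicate 4 in each case. Psmb8 was 0.44 ± 0.08 higher (1.36-fold, adjusted p = 0.000421), Psme1 0.28 ± 0.05 (1.22-fold, adjusted p = 0.00023) and Psme2 0.25 ± 0.06 (1.19-fold, adjusted p = 0.00164), and these 3 overlapped between the strains at that same array. The dim probe set of Psme1 gave -0.03 (adjusted p = 0.918). Within arrays, Psmb10 minus Psmb7 was 0.52 ± 0.09 higher in SBH/y, without overlap, and Psmb8 minus Psmb5 was 0.40 ± 0.10 higher, with overlap. Psmb5 (0.04 ± 0.04) and Psmb7 (0.01 ± 0.05) themselves missed the threshold.

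Psmf1, which encodes the proteasome inhibitor PI31, ranged from 7.31 to 7.44 (median 7.36) in SBH/y with 1 kidney and from 7.10 to 7.25 (median 7.19) in SBN/y with 1 kidney. It was 0.19 ± 0.05 higher without overlap (1.14-fold, adjusted p = 0.00733). With 2 kidneys it ranged from 7.25 to 7.33 (median 7.29) in SBH/y and was 7.26, 7.29, 7.11, 7.37 and 7.31 in SBN/y, and the difference of 0.03 ± 0.05 missed the threshold (adjusted p = 0.865).

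With 2 kidneys the strains differed at 3 members. SBH/y rats were higher at 1 gene, Psmb9, and lower at 2, Psmb3 and Psme4, where the percentage of all probe sets called was 9.07 (4.32 higher, 4.75 lower). The 3 calls are 6.52% of the members, no more than the background. These 3 were also the members without overlap, against 7.57% of all probe sets. Psmb9 ranged from 6.63 to 7.003 (median 6.98) in SBH/y and was 6.54, 6.33, 6.60, 6.45 and 6.56 in SBN/y. Its difference was 0.41 ± 0.10, or 1.33-fold (adjusted p = 0.00946). The others of the 5 were positive but missed the threshold, at 0.10 ± 0.09 for Psmb8, 0.09 ± 0.08 for Psmb10, 0.10 ± 0.05 for Psme1 and 0.03 ± 0.06 for Psme2. The medians were 0.10 over the immunoproteasome genes (0.064 without replicate 4 of SBN/y with 2 kidneys, 0.038 with a GAPDH covariate), -0.02 over the 39 others (between -0.026 and -0.0024 with single arrays left out) and 0.0068 over all genes. With p-values adjusted over 1 probe set per gene, the non-ATPase cap subunits Psmd1 (0.14 ± 0.05) and Psmd4 (-0.14 ± 0.05) passed as well.

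Psme4, which encodes the activator PA200, known for acetylated histone degradation and DNA repair, was lower in SBH/y whatever the number of kidneys. With 1 kidney it ranged from 7.88 to 8.16 (median 7.99) in SBH/y and from 8.32 to 8.48 (median 8.39) in SBN/y. With 2 it ranged from 7.83 to 7.98 (median 7.96) in SBH/y and was 8.44, 8.40, 8.40, 8.35 and 8.34 in SBN/y. No SBH/y array reached any SBN/y array. The difference was -0.40 ± 0.05 with 1 kidney (adjusted p = 1.47e-06) and -0.46 ± 0.05 with 2 (adjusted p = 4.63e-07), that is 0.76 and 0.73 of the SBN/y signal.

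Its 3 probe sets gave like values. The second gave -0.44 with 1 kidney and -0.44 with 2, and the third gave -0.53 and -0.50 in the same order, all past the threshold. Uninephrectomy left Psme4 short of the threshold in SBH/y (0.07 ± 0.05, adjusted p = 0.555) and in SBN/y (0.01 ± 0.05, adjusted p = 0.990). Of the genes beside Psme4 in the RefSeq order, looked at after the values were seen, Acyp2, Gpr75, Erlec1, Asb3 and Eml6 passed the threshold in neither strain comparison, and Sptbn1 was higher in SBH/y by 0.18 with 1 kidney and 0.19 with 2.

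**Figure D4:**
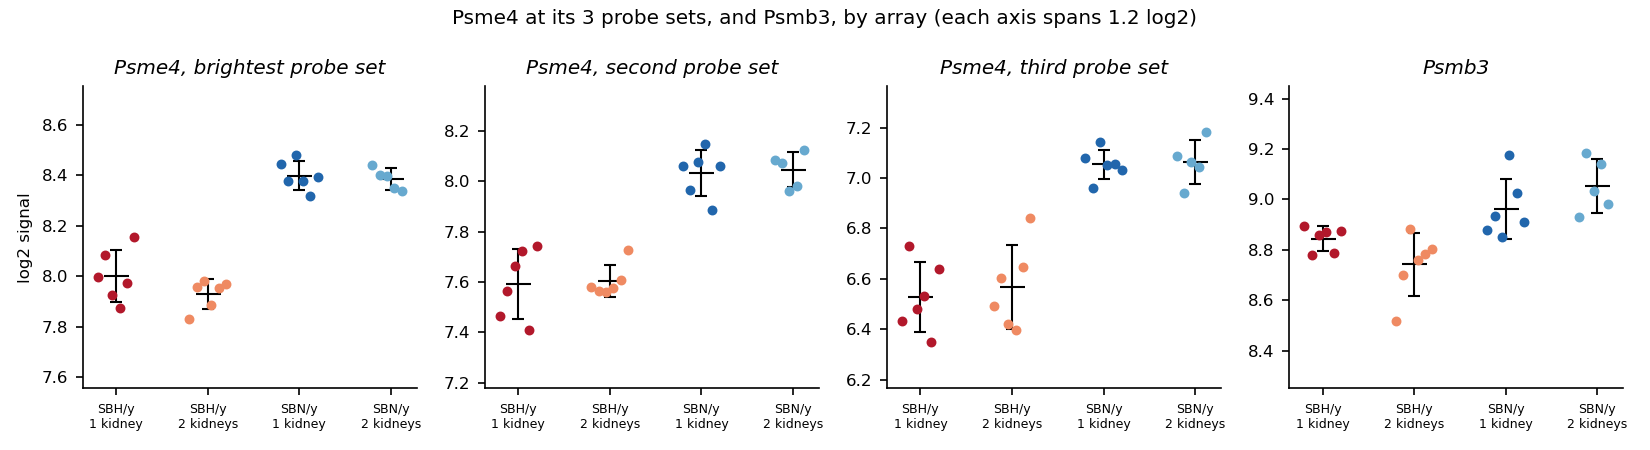
Deposited log2 signal (vertical axes, each spanning the same range of log2 units) of the 3 probe sets of Psme4 and of Psmb3 in every array. Points are arrays, the horizontal bar is the group mean and the whiskers are the SD (n = 6, and 5 for SBN/y with 2 kidneys). At the brightest probe set the SBH/y arrays end at 8.16 and the SBN/y arrays begin at 8.32.

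Psmb3, a structural beta subunit, ranged from 8.52 to 8.88 (median 8.77) in SBH/y with 2 kidneys and was 8.93, 9.18, 9.03, 9.14 and 8.98 in SBN/y. The groups did not overlap, and the difference was -0.31 ± 0.07, or 0.81 of the SBN/y signal (adjusted p = 0.00187). With 1 kidney it ranged from 8.78 to 8.90 (median 8.87) in SBH/y and from 8.85 to 9.18 (median 8.92) in SBN/y, with overlap (-0.12 ± 0.06, adjusted p = 0.276). RefSeq lists 52 near copies of the proteasome genes, 46 of them named pseudogenes, which probe sets could also read, and their part was not tested.

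Psmb8 and Psmb9 lie in the rat MHC, in the order RT1-Da, RT1-Db1, RT1-Ba, RT1-Bb, Tap2, Psmb8, Tap1, Psmb9, RT1-DMb and RT1-DMa. This neighbourhood was also examined after the values were seen. With 1 minus 2 kidneys in SBH/y, the class II genes RT1-Da (0.53), RT1-Db1 (0.59), RT1-Ba (0.45), RT1-DMb (0.41) and RT1-DMa (0.54), whose products load peptides for helper T cells, rose with Psmb8 and Psmb9. The class II gene RT1-Bb (0.22, adjusted p = 0.489) missed the threshold. The transporter genes Tap1 (0.29, adjusted p = 0.0604) and Tap2 (0.24, adjusted p = 0.0760), which bring peptides into the endoplasmic reticulum, missed it too. In SBH/y minus SBN/y with 2 kidneys the neighbours diverged. RT1-Ba (2.20), RT1-Db1 (1.16), RT1-Da (0.72), Tap1 (0.45) and Psmb9 (0.41) were higher, and RT1-Bb (-2.66) was lower. Tap2 (-0.04), Psmb8 (0.10), RT1-DMb (-0.12) and RT1-DMa (-0.18) were short of the threshold. In the same strain comparison with 1 kidney, RT1-Ba (2.54), RT1-Db1 (1.46), RT1-Da (1.01), Tap1 (0.46) and Tap2 (0.24) were higher. RT1-Bb (-2.53) was lower, and RT1-DMb (0.15) and RT1-DMa (0.21) missed the threshold. For these and all other strain comparisons, the probes were not compared with either strain's sequence. A part of sequence differences in these signals was not tested. Emc9, between Psme1 and Psme2, missed the threshold in all comparisons, but some other neighbours passed. Slc12a4, near Psmb10, rose in SBH/y with 1 minus 2 kidneys (0.22). In SBH/y minus SBN/y with 1 kidney, Slc12a4 (0.22), Irf9 (0.30) and Ipo4 (0.24) near Psme2, and Slc39a7 (0.31) near Psmb9 were higher. Nrn1l, near Psmb10, was lower there (-0.34). Irf9 was higher in SBH/y with 2 kidneys as well (0.30, adjusted p = 0.0499).

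For the rest of the class I pathway, 12 of 13 listed genes were measured. In SBH/y with 1 minus 2 kidneys, 2 rose, the peptide trimmer Erap1 (0.25, adjusted p = 0.0205) and the chaperone Pdia3 (0.22, adjusted p = 0.0116), and the median of the 12 was 0.20. In SBH/y minus SBN/y with 1 kidney 7 were higher, among them Tapbp (0.64), which holds class I to the transporter, RT1-CE5 (0.59), Tap1 (0.46) and B2m (0.24), with a median of 0.24. With 2 kidneys 4 were higher (Tapbp, RT1-CE5, Tap1 and RT1-S3). In SBN/y with 1 minus 2 kidneys 0 of 12 passed (limma), with 1 at an unadjusted p under 0.05. The background for this and the lists below is the share of all genes called at their brightest probe sets. With 1 minus 2 kidneys it was 7.16% in SBH/y and 0.253% in SBN/y. Between strains it was 17.7% with 1 kidney and 11% with 2.

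Of 15 interferon genes listed, 14 were measured. In SBH/y with 1 minus 2 kidneys 6 rose: Ubd, a ubiquitin-like tag for the proteasome (1.35), the transcription factors Irf8 (0.52) and Irf1 (0.48), the chemokine Cxcl10 (0.51), and the interferon gamma receptor chains Ifngr2 (0.37) and Ifngr1 (0.30). In SBN/y 1 rose, Ubd (0.80, adjusted p = 0.000543). In SBH/y minus SBN/y 11 were higher with 1 kidney, from 0.21 for Ifngr2 to 1.09 for Ubd, and 4 with 2 kidneys (Ubd, Gbp2, Irf7 and Irf9). Medians over the 14 were 0.28 in the SBH/y operation, 0.10 in the SBN/y operation, 0.38 between strains with 1 kidney and 0.18 with 2.

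Of 17 genes that serve the proteasome from outside the symbol rule, 13 were measured, and 0 passed in either operation (limma). Unadjusted p was under 0.05 for 2 in SBH/y and 1 in SBN/y. In SBH/y minus SBN/y with 1 kidney, Vcp, the segregase that pulls ubiquitin-tagged proteins apart (0.34), and Nfe2l1, the factor that drives constitutive proteasome genes (0.22), were higher. With 2 kidneys Vcp was higher (0.32) and Ecpas, a proteasome adaptor, was lower (-0.30). The 2 of 13 called with 1 kidney are no more than the background of 17.7%, and with 2 kidneys the background was 11%.

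Leukocyte markers moved with the immunoproteasome genes. All 16 listed were measured, and 13 rose in SBH/y with 1 minus 2 kidneys (median 0.46), 12 were higher in SBH/y with 1 kidney than in SBN/y with 1 (median 0.47), 0 passed in the SBN/y operation (median 0.15, with 2 at an unadjusted p under 0.05), and with 2 kidneys 6 were higher and 1 lower in SBH/y (median 0.09). Their mean per array lay between 6.64 and 7.002 in SBH/y with 1 kidney, between 6.27 and 6.35 in SBH/y with 2, between 6.22 and 6.53 in SBN/y with 1 and between 6.16 and 6.23 in SBN/y with 2. The array with 6.53, replicate 4 of SBN/y with 1 kidney, was the one that led its group in all 5 immunoproteasome genes, and replicate 1 of SBH/y with 1 kidney, at 7.002, led its group in Psmb8 and Psmb9. The orders were not the same throughout. In SBH/y with 1 kidney, replicate 2 (6.80) led in Psmb10, Psme1 and Psme2, and replicate 3 (6.69) was the lowest in all 5 genes, while the lowest leukocyte mean, 6.64, was that of replicate 4. In SBH/y with 2 kidneys, replicate 1 (6.30) was the lowest in all 5, while the lowest leukocyte mean, 6.27, was that of replicate 3. Markers of B cells and cytotoxic T cells were dim, with overall means of 3.09 for Ms4a1, 3.44 for Cd8a and 3.96 for Cd79b, and these 3 did not pass in SBH/y. Their part in the immunoproteasome differences was not tested.

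RNA quality, read as the 3′ minus the 5′ signal of the GAPDH controls, also moved with the groups. It was 0.53 ± 0.11 in SBH/y with 1 kidney and 0.46 ± 0.06 with 2, and 0.45 ± 0.04 in SBN/y with 1 kidney (SD, n = 6 each) and 0.35 ± 0.03 with 2 (SD, n = 5). With this measure as a covariate, the same 4 immunoproteasome genes rose in SBH/y rats with 1 kidney and all 5 stayed higher in SBH/y than in SBN/y with 1 kidney. As the measure moved with the groups, this fit cannot tell their parts apart. The same measure of the beta-actin controls averaged 1.25 and 1.14 in SBH/y with 1 and 2 kidneys, and 1.22 and 1.12 in SBN/y. It was not tested as a covariate.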

How the data were processed

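RNA of 23 samples of male rat kidney was hybridised to Affymetrix arrays, 1 per sample. The deposited log2 signals, 1 per probe set and array, came from the authors' use of GCOS and RMA, as the submitters' processing notes list these tools without versions. Values ran from 1.89 to 13.67. RMA is known to equalise the arrays' distributions, so a change in total mRNA could not be seen. The number of arrays limits the precision. No batch label was known. The labels name separate samples only, so the p-values reflect only how far these samples spread, which may be technical.

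Of 31099 probe sets, 57 controls were left out. The array's annotation gave 1 symbol for 20826 of the 31042 tested, several for 436 and none for 9780, and 20758 were found in RefSeq (GRCr8), used for names and gene order. A single model in limma (version 3.58.1 under R 4.3.3), 4 group means, gave every contrast, two-sided, with Benjamini-Hochberg adjustment over the tested probe sets and a threshold of 0.05. The fit was tested on simulated data. Every member is accounted for by role, and values are given for the immunoproteasome genes, their constitutive counterparts, Psme4 and each member past the threshold. Members and lists were chosen with earlier results of these data known. The alternatives were a repeated quantile normalization, dim probe sets left out, a trended and robust variance, fits on only the groups of a contrast, the next brightest probe set, 1 probe set per gene, the replicate number as a block, a GAPDH covariate, and each array left out. The deviations of same-numbered arrays of compared groups correlated between -0.17 and 0.26. Differently numbered arrays were not set beside them, so these values cannot decide whether the numbers pair the samples.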

Additional observations from a re-analysis of the deposited data

Results flagged for a closer look

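Psmb10 stood at 6.24 in replicate 4 of SBN/y with 1 kidney, a single array far above the other 5 of its group, which lay between 5.92 and 6.04. It was 1 of 40 groups of values checked, and about 1 in 20 would be found apart by chance. The same array had the highest mean of 16 leukocyte markers in its group, 6.53.

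Of the listed and member genes, Cd3g, a chain of the T cell receptor complex, had a response to uninephrectomy that differed between the strains. SBH/y exceeded SBN/y by 0.67 (limma, adjusted p = 0.00491), with 0.62 in SBH/y and -0.05 in SBN/y. Cd3g was dim, with an overall mean of 4.54, under that of the median probe set (4.66). With 2 kidneys it was lower in SBH/y (4.23) than in SBN/y (4.58), a difference of -0.35 that passed the threshold.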

How the results depend on the processing

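Of 720 repeats of the named gene results under other settings, 711 kept the direction and the side of the threshold. The immunoproteasome median ran from 0.35 to 0.44 in the SBH/y operation and from 0.39 to 0.50 between strains with 1 kidney. Between strains with 2 kidneys (0.099) it was 0.038 with the GAPDH covariate and 0.064 without replicate 4 of SBN/y with 2 kidneys. In the SBN/y operation (0.023) it ran from -0.016, without replicate 4 of SBN/y with 1 kidney, to 0.047, and was 0.00081 with the GAPDH covariate, so it has no settled sign. Nor has the median of the 39 others there, from -0.016 to 0.025. Leaving out dim probe sets gave 6 calls between strains with 2 kidneys and 8 in the SBH/y operation, in place of 3 and 4, and testing 1 probe set per gene gave 5 and 8, where fewer probe sets were tested. The trended and robust variance gave 10 in the SBH/y operation and repeated quantile normalization gave 6, and the cause was not tested. With the replicate number as a block the counts were 3 and 7 between strains with 2 and with 1 kidney, 0 in SBN/y, 4 in SBH/y and 0 for the difference of responses, so the block changed no call. Leaving out single arrays gave 3 to 4, 7 to 8, 0 to 0, 3 to 6 and 0 to 1 calls in the same order. The call for the difference of responses was Psmb10, without replicate 3 of SBH/y with 1 kidney (0.49, adjusted p = 0.0315). Psmb9 in the SBH/y operation was 0.35 (adjusted p = 0.0546) without replicate 1 of SBH/y with 1 kidney.

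Signs turned for the next, dim probe set of Psme1 (-0.026 between strains with 1 kidney, -0.070 in the SBH/y operation and -0.029 for the difference of responses), the cause not tested. In the SBN/y operation, where neither gene was called, Psmb10 turned to -0.023 with the GAPDH covariate, and ran from -0.022 (without replicate 4 of SBN/y with 1 kidney) to 0.043 over single arrays left out, with -0.0051 without replicate 4 of SBN/y with 2 kidneys. Psme2 ran from -0.016, without replicate 4 of SBN/y with 1 kidney, to 0.047. Fits with only the groups compared give no value for the difference of responses. Dim probe sets carry little signal over background, which limits the second probe set of Psme1.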
